A study of Mus musculus with 6 samples.

Results

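Oxidative phosphorylation runs on protein complexes of the inner mitochondrial membrane, and most of their subunits are encoded in the nucleus. The genes described here were taken by symbol from a deposited expression table of mouse midbrain: all names starting with Nduf, Uqcr, Cox4 to Cox8 or Atp5, plus Sdha to Sdhd, Cyc1 and Cycs. This gave 86 of the 5538 genes in the table. They are 36 subunit genes of complex I, 4 of complex II, 9 of complex III, 11 of complex IV and 15 of complex V, the gene of cytochrome c, and 10 assembly factors and related genes. The symbols alone chose the members, among genes that have a value in the table.

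RNA came from the perioculomotor (pIII) region of the brain of C57BL/6 mice, the midbrain around the oculomotor nucleus, in 3 IP and 3 Input libraries. All mice of both groups carried a Fos promoter driving CreER, a Cre recombinase that acts once 4-OHT is given, and a Cre-inducible reporter that makes eGFP-L10a, a tagged ribosomal protein. Each animal had 6 hr of sleep deprivation (SD) and then 3 hr of recovery sleep (RS), with 4-OHT injected just before SD or just before RS to mark neurons active in waking or in sleep. The series text names RS-eGFP neurons as the ones profiled, while the single labels give only IP or Input and a number. IP is RNA recovered with eGFP antibodies. Both kinds of library carry one and the same extraction text in the labels, and Input is taken to mean tissue RNA that was not immunoprecipitated. Each library pooled tissue of 4 to 5 mice, so the spread below is between pools. The tag marks whichever cells had an active Fos promoter while 4-OHT was present, in any cell type, and ages are not given in the labels. In bulk RNA of this kind, fewer cells of a type and less RNA per cell cannot be told apart.

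Complex I takes electrons from NADH and complex II from succinate. Both pass them through ubiquinone to complex III, from there by cytochrome c to complex IV, and on to oxygen. Complexes I, III and IV pump protons, and complex V, the ATP synthase, uses their return to make ATP. Neurons depend on this supply to restore ion gradients after firing, and each complex apart from complex II also holds subunits encoded by mitochondrial DNA.

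Values are TPM, a share of all transcripts that is scaled for transcript length, which puts the levels of different genes on one scale. Differences between libraries of 1 group followed coding length in the members. In the other genes they did so between IP libraries but hardly between Input libraries (below). Whether the scaling left a dependence on length was not tested. Comparisons between genes, and shares, carry that limit. Summed TPM over the table ran from 855954 to 885495, and no value lies below 7.0, so a gene under that level in any library has no value here. The level of the median gene was 27.7 TPM in IP 1, 56.5 in IP 2, 51.0 in IP 3, 64.3 in Input 1, 67.2 in Input 2 and 31.1 in Input 3. Levels are therefore also given as centred values, log2(TPM + 1) minus the median gene of the same library, and a difference is the mean centred value of IP minus that of Input. Across all genes, IP 1 correlated with IP 2 and IP 3 at r = 0.831 and 0.882, and Input 3 with Inputs 1 and 2 at 0.722 and 0.736, against 0.962 between IP 2 and IP 3 and 0.973 between Inputs 1 and 2. IP 1 and Input 3 thus stood apart from their groups, and differences are also given without both. Of the regional markers, 5 of 6 cholinergic and oculomotor genes had values, and their differences were all above 0 (median 1.28; 5 called higher by limma without IP 1 and Input 3). Their median centred value was 0.60, 1.004 and 0.61 in IP, and -0.87, -0.88 and 0.41 in Input. By this median Input 3 lay nearer to the IP libraries than to Inputs 1 and 2. In 3 of these genes all centred IP values lay above all Input values, while Slc18a3 and Slc5a7 overlapped between the groups. All 3 peptide genes of the Edinger-Westphal nucleus had values, with differences all below 0 (median -0.34), and without IP 1 and Input 3 limma called 2 of them lower (Cartpt and Ucn; median -0.90). Summed TPM of 5 oligodendrocyte genes was 357, 2889 and 4390 in IP and 4016, 4770 and 528 in Input, and that of 4 astrocyte genes 100, 286 and 236 against 575, 600 and 124. Both sums were thus low in IP 1 and Input 3. Without these libraries, 2 of the 4 astrocyte genes were called lower (Agt and Ntsr2, list median -0.90), and 0 of the 5 oligodendrocyte genes. Glul and Gfap, not called, had -0.58 and -0.03 there. The other listed markers of both cell types had no value. Of 7 general neuron genes, 4 differences were above 0 and 3 below (median 0.11). Without IP 1 and Input 3 their median was 0.02, and limma called 1 higher (Nefl). Ly6c1, the 1 endothelial or mural gene with a value, had a difference of 1.92. Without IP 1 and Input 3 it was 2.22 and called higher. The 1 microglia gene with a value, Ctss, had -0.49, and -0.29 without them, not called. None of 6 muscle genes had a value. The part of cell-type makeup in the results below was not tested.

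The oxidative phosphorylation genes were among the abundant transcripts of every library, and none passed the test between IP and Input. Of the 86 genes, 77 lay above the median gene in all 6 libraries (89.5%, against 32.7% of all genes). Mean TPM of the 86 genes over the libraries ran from 29.2 (Atp5s) through a median of 433 to 3112 (Atp5b), where the median over all genes was 51.3. Together they made up 6.25, 5.09 and 5.62% of the listed TPM in IP 1, IP 2 and IP 3, and 7.40, 6.48 and 2.34% in Inputs 1, 2 and 3. The median centred value of the 86 genes was 4.16, 2.57 and 3.04 in the IP libraries and 3.30, 2.84 and 2.50 in the Input libraries. IP 1 was the highest library and Input 3 the lowest, with the other 4 between them and the groups overlapping.

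The median difference of the 86 genes was 0.41, against 0.02 over all genes, and 72 of the 86 differences were above 0 (83.7%, against 51.8% of all genes). The limma test with Benjamini-Hochberg adjustment over all genes called 0 members higher and 0 lower at an adjusted p of 0.05, as it did for all genes (0% in each direction). At an unadjusted p of 0.05, it had 0 members higher and 1 lower (Atp5s), against 198 (3.58%) and 213 (3.85%) of all genes. All IP values lay above all Input values in 3 members on the centred scale (3.49%, against 6.93% of all genes) and below in 1 (1.16%, against 9.71%). On the TPM scale, 0 members were apart upward (1.7% of all genes) and 3, namely Sdhc, Cycs and Atp5s, downward (3.49%, against 6.21%). Without IP 1 and Input 3 the median difference was -0.13, against -0.04 over all genes, and 23 of 86 differences were above 0 (26.7%, against 46.2% of all genes). In this setting limma called 0 members in either direction while calling 187 of all genes higher (3.38%) and 160 lower (2.89%). The smallest adjusted p of a member there was 0.150 (Ndufaf3). In these 4 libraries all centred IP values lay above all Input values in 5 members (5.81%, against 25.2% of all genes) and below in 10 (11.6%, against 31.5%). With no centring of these 4 libraries, limma called 8 of the 86 members lower and 0 higher. Over all 5538 genes it called 936 lower and 121 higher there, and their median itself was -0.33. The direction of the median thus turned with these libraries: it was 0.04 without IP 1 alone and 0.21 without Input 3 alone. With all libraries and no centring it was 0.17, against -0.23 over all genes.

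Most members shared an order of libraries. In 70 of the 86 genes IP 1 had the highest centred value of the 6 libraries (81.4%, against 30.6% of all genes), and in 56 Input 3 had the lowest (65.1%, against 25.4%). Both held at once in 52 genes (60.5%, against 9.28%). Over the members, the median of IP 1 minus the mean of IP 2 and IP 3 was 1.10, and that of Input 3 minus the mean of Inputs 1 and 2 was -0.54.

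**Figure D1:**
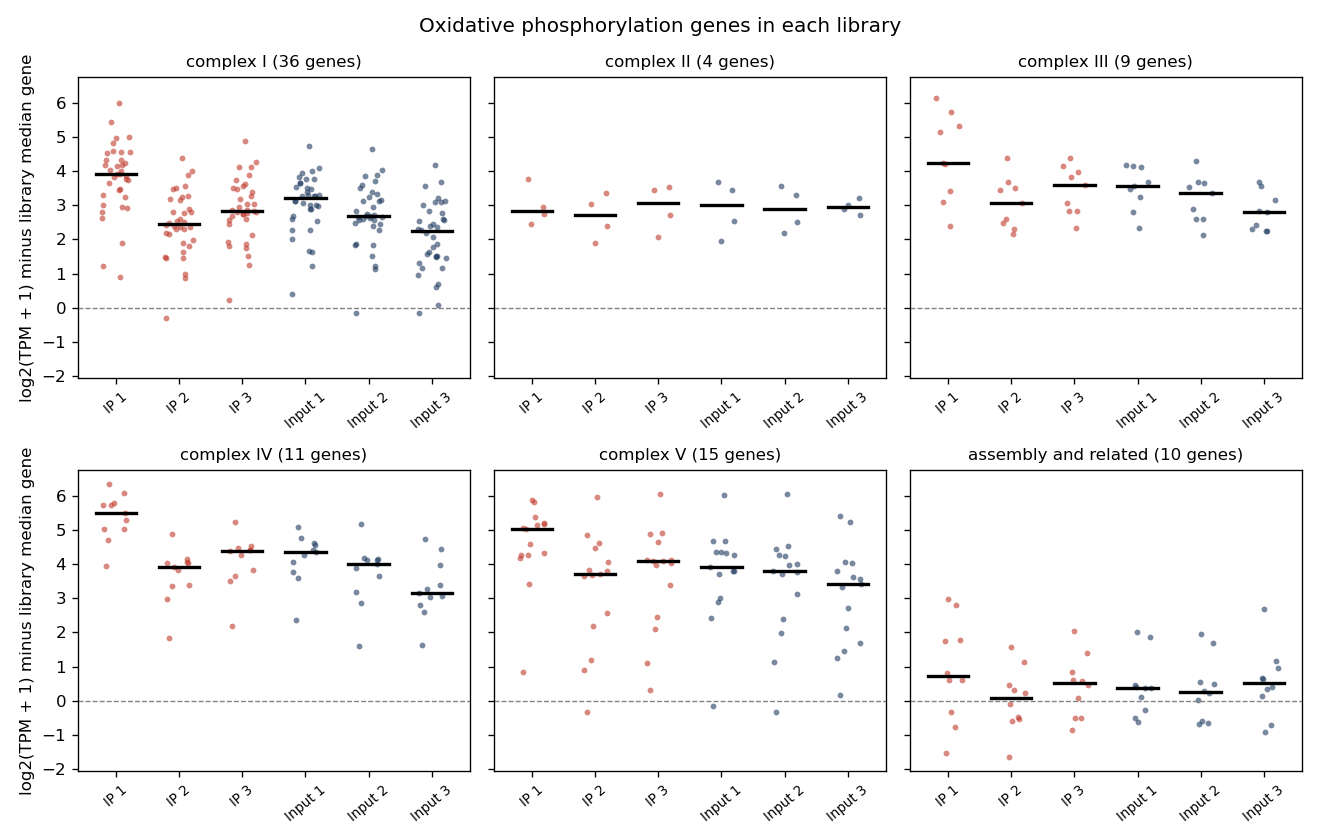
Centred log2(TPM + 1) of each gene (points, vertical axis; 0 is the library's median gene) by library along the horizontal axis, red for IP, blue for Input, with black bars at the median, for complexes I to V and the assembly and related genes. The bars of complexes I, III, IV and V are highest in IP 1 and lowest in Input 3 (5.50 and 3.15 in complex IV), while those of complex II lie between 2.71 and 3.08 in all libraries.

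Complex I, the NADH dehydrogenase and largest of the complexes, had a median difference of 0.44 over 36 genes, 33 of them above 0, and -0.18 without IP 1 and Input 3, with 5 above 0. Its 29 accessory subunits, which surround the catalytic core, all had differences above 0 (median 0.46), and 2 of them without those libraries (median -0.23). The 7 nuclear-encoded core subunits, which carry flavin, iron-sulphur clusters or the quinone site, had a median of 0.03 and of -0.03 without them. The accessory genes' median was 4.03, 2.38 and 2.79 in IP and 3.14, 2.64 and 1.87 in Input on the centred scale, and that of the core genes 3.46, 3.25 and 3.28 against 3.26, 3.34 and 3.09. The core thus spanned a narrower range over the libraries than the accessory subunits. Ndufb8 (chromosome 19, 44548572 to 44555440), an accessory subunit of the membrane arm and the most abundant gene of the complex, had 1815, 1201 and 1524 TPM in the IP libraries, and 1731, 1722 and 583 in the Input libraries, a difference of 0.56 (SE 0.48) that was -0.06 without IP 1 and Input 3. Ndufs7, a core subunit with an iron-sulphur cluster, had 920, 924 and 1008 TPM in the IP libraries, and 1122, 1104 and 279 in the Input libraries, a difference of 0.68 (SE 0.42), and 0.08 without those libraries. In both genes the TPM of Input 3 was far below that of the other 5 libraries. On the centred scale Input 3 was also lowest, but for Ndufb8 by little. There Ndufb8 had 4.19 in Input 3 and 4.39 in IP 2, the next lowest, and Ndufs7 3.13 and 4.01. Ndufa10, an accessory subunit, had 535, 856 and 901 TPM in IP against 886, 1001 and 409, and its centred IP values (4.23, 3.90 and 4.12) lay just above those of Input (3.76, 3.88 and 3.68), a difference of 0.31 (SE 0.29), and 0.19 without IP 1 and Input 3. The most positive difference was that of the small accessory subunit Ndufa3, at 0.93 (SE 0.87), with 1245 TPM in IP 1 against 299 and 359 in IP 2 and IP 3, and 828, 409 and 94.4 in Input. Without IP 1 and Input 3 it was -0.54 (SE 0.33). The most negative was that of Ndufs1, the largest core subunit, at -0.16 (SE 0.30), and 0.06 without those libraries, with 52.8, 156 and 187 TPM in the IP libraries, and 208, 192 and 90.8 in the Input libraries. IP 1 was here the lowest library, the reverse of Ndufa3.

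Complex II, succinate dehydrogenase, is also an enzyme of the citric acid cycle and has no subunit encoded in mitochondria. Its 4 genes had a median difference of 0.00 with all libraries and -0.03 without IP 1 and Input 3. Sdha, the flavoprotein, had 219, 594 and 603 TPM in the IP libraries, and 712, 671 and 296 in the Input libraries, a difference of -0.04 (SE 0.29) that was 0.08 without IP 1 and Input 3. Sdhb, the iron-sulphur subunit, had 390, 467 and 565 TPM in the IP libraries, and 834, 800.5 and 239 in the Input libraries, with a difference of 0.04 (SE 0.35) that was -0.38 (SE 0.20) without those libraries. These catalytic genes had their lowest TPM in IP 1 and Input 3, as the median gene had. Of the membrane anchors, Sdhd had 191, 301 and 338 TPM in IP against 383, 385 and 208 (difference 0.03, SE 0.26, and 0.02 without them). Sdhc had 157, 213 and 215 TPM in the IP libraries, and 251, 307 and 256 in the Input libraries, a difference of -0.24 (SE 0.36), and -0.09 without them. Its TPM did not overlap between the groups, but its centred values did, since the centred value of 2.46 in IP 1 lay above those of Inputs 1 and 2 (1.95 and 2.18).

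Complex III, the cytochrome bc1 complex, had 9 genes with differences all above 0 (median 0.30), and 4 of 9 without IP 1 and Input 3 (median -0.07). The 4 larger subunits, Cyc1 (cytochrome c1), Uqcrfs1 (the Rieske iron-sulphur protein) and the core proteins Uqcrc1 and Uqcrc2, had differences of 0.30, 0.08, 0.28 and 0.05, and of 0.13, 0.00, 0.15 and 0.01 without those libraries. The 5 small accessory subunits had a median of 0.63, and -0.19 without them. Uqcrc1 had 535, 1193 and 1093 TPM in the IP libraries, and 1166, 1348 and 410.2 in the Input libraries, low in IP 1 and Input 3 alike. Uqcr11, the smallest of the accessory subunits (chromosome 10, 80402997 to 80406830), reached 2010 TPM in IP 1, against 620.1 and 914 in the other IP libraries and 1175, 794 and 156 in Input, a difference of 1.23 (SE 0.77) that was -0.07 (SE 0.28) without IP 1 and Input 3. Uqcrq, another small subunit, had 1522, 651 and 818 TPM in IP against 1135, 859 and 222 (difference 0.88, SE 0.64, and -0.15 without those libraries). In these small-subunit genes IP 1 was far above the other libraries and Input 3 far below.

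Cytochrome c, the soluble carrier between complexes III and IV, stood out by its low listed level. Cycs had 15.1, 44.3 and 59.2 TPM in the IP libraries, and 67.1, 68.8 and 72.0 in the Input libraries, a difference of -0.75 (SE 0.41), and -0.11 (SE 0.23) without IP 1 and Input 3. A second gene of the table, Gm10053, matches its coding sequence at 100% identity and held most of the signal, with 267, 677 and 764 TPM in the IP libraries, and 825, 744 and 582 in the Input libraries. How reads divide between such copies is uncertain. The 2 genes summed to 282, 721 and 823 TPM in the IP libraries, and 893, 813 and 654 in the Input libraries, a centred difference of -0.25, and 0.14 without those libraries. The centred sums were 3.30, 3.65 and 3.99 in IP and 3.77, 3.58 and 4.35 in Input, lowest in IP 1 and highest in Input 3.

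Complex IV, cytochrome c oxidase, had the widest range of library medians among the complexes (3.15 to 5.50 on the centred scale). Its 11 genes all had differences above 0 (median 0.62), and 3 of 11 without IP 1 and Input 3 (median -0.07). IP 1 had the highest centred value in all 11 and Input 3 the lowest in 9. The ubiquitous Cox4i1, which helps set the activity of the enzyme, was the most abundant gene of the complex with 2335, 1681 and 1948 TPM in the IP libraries, and 2227, 2471 and 860 in the Input libraries (difference 0.48, SE 0.47, and -0.09 without IP 1 and Input 3). Cox6b1, a subunit at the cytochrome c side, had 1953, 1022 and 1111 TPM in IP against 1615, 1089 and 337 (difference 0.88, SE 0.59, and -0.03 without them). Ndufa4, named for complex I but now assigned to complex IV, had 1296, 939 and 1211 TPM in the IP libraries, and 1537, 1211 and 693 in the Input libraries, the smallest difference of the complex at 0.31 (SE 0.44), and -0.07 without them. Cox8a had 1577, 821 and 989 TPM in IP against 1259, 1176 and 261 (difference 0.82, SE 0.60, and -0.15 without them). The largest difference was that of Cox6a1 (chromosome 5, 115345642 to 115348981), the form of subunit 6a found outside muscle and heart, at 1.02 (SE 0.52; limma adjusted p = 0.683 over all genes), with 1508, 947 and 1075 TPM in the IP libraries, and 1081, 1010 and 283 in the Input libraries. Without IP 1 and Input 3 its difference was 0.24 (SE 0.19). Of subunits with several forms, values were had for Cox4i1, Cox6a1, Cox6b1, Cox7a2, Cox7b and Cox8a, and no value was had for Cox4i2, Cox6a2, Cox6b2, Cox7a1, Cox7b2, Cox8b or Cox8c. Cox7a2l, a relative of Cox7a2 that helps join complexes III and IV into supercomplexes, took 19.3, 27.2 and 26.3% of the summed TPM of both genes in IP and 22.7, 29.9 and 48.0% in Input. That is 24.3 ± 4.32% against 33.5 ± 13.1% (SD, n = 3 each), with overlapping groups and a two-sided exact permutation p of 0.4. The difference of -9.27 points was -2.02 without Input 3 alone and 0.46 without IP 1 and Input 3.

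**Figure D2:**
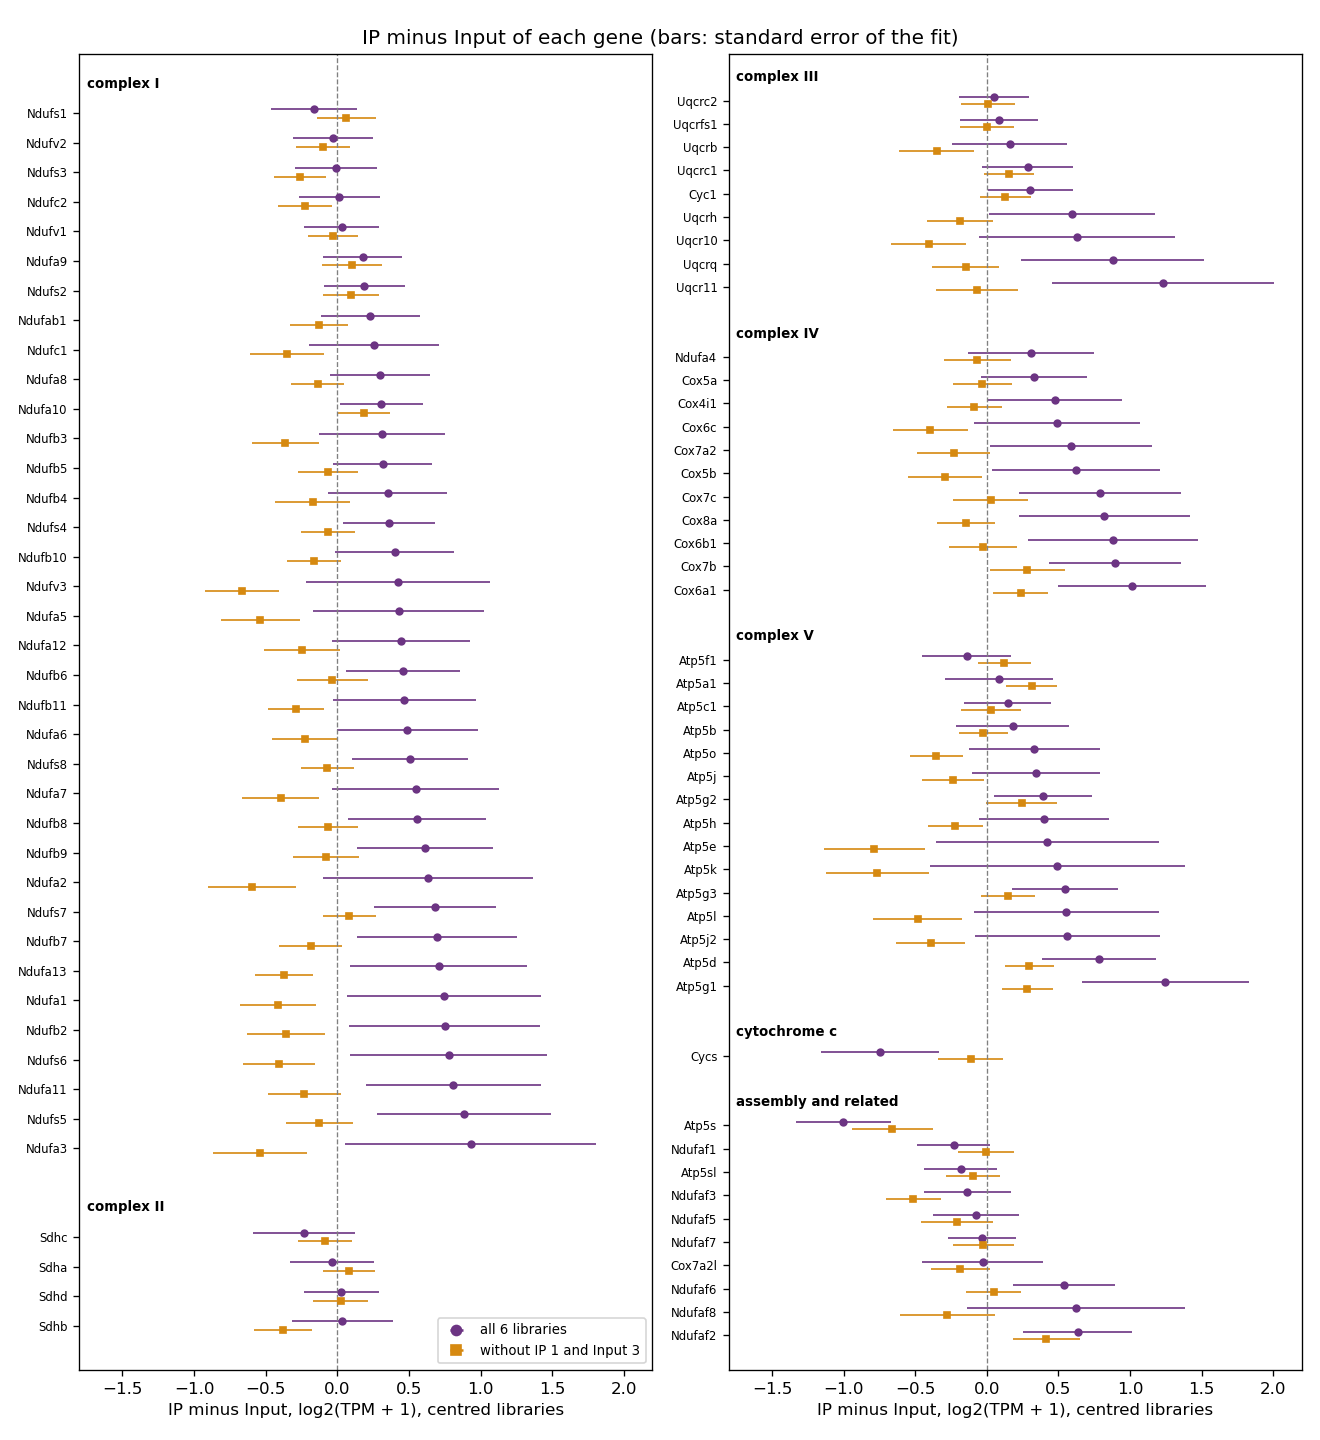
IP minus Input difference of each gene in centred log2(TPM + 1) (horizontal axis), with all 6 libraries in purple circles and without IP 1 and Input 3 in orange squares, bars giving the standard error of the fit, genes grouped by complex (vertical axis). Most purple points of complexes I, III, IV and V lie right of 0 and most orange points left of it, with 72 and 23 of 86 above 0.

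Complex V, the ATP synthase, had 15 genes with a median difference of 0.40, 14 of them above 0, and -0.03 without IP 1 and Input 3, with 7 above 0. Atp5b (chromosome 10, 128083273 to 128090391), the catalytic subunit of the soluble F1 head, was the most abundant of all 86 genes, with 1630, 3587 and 3474 TPM in the IP libraries, and 4290, 4479 and 1213 in the Input libraries. Its difference was 0.18 (SE 0.40), and -0.03 without IP 1 and Input 3, with centred values of 5.83, 5.96 and 6.06 in IP and 6.04, 6.04 and 5.24 in Input. Atp5a1, which pairs with it in the head, had 951, 1666 and 1530 TPM in IP against 1655, 1490 and 1371 (difference 0.09, SE 0.38, and 0.31 without them). Relative to the median gene it was highest in Input 3 (5.42), unlike most members. Atp5f1, of the stalk that holds head and membrane part together, had the most negative difference of the complex at -0.14 (SE 0.31), and 0.12 without them, with 302, 739 and 809 TPM in the IP libraries, and 847, 890 and 537 in the Input libraries. The 3 supernumerary subunits of the membrane part, Atp5j2, Atp5k and Atp5l, had a median difference of 0.56, and -0.48 without IP 1 and Input 3. Atp5d, a small subunit of the central stalk, had 1034, 951 and 897 TPM in the IP libraries, and 903, 934 and 343 in the Input libraries, and its centred values did not overlap between the groups (difference 0.78, SE 0.40, and 0.30 without those libraries).

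Subunit c forms the rotating ring of the membrane part and is encoded by 3 genes, Atp5g1, Atp5g2 and Atp5g3, whose products differ in the import signal that is cut off. The end of the reading frame is shown because the genes differ there in bases but not in the encoded residues, so reads can be assigned to one of them only where bases differ. Over the last 228 bases, which are 76 codons with the stop, Atp5g2 and Atp5g3 differ from Atp5g1 at 34 and 46 bases (85.1 and 79.8% identical) and at 0 encoded residues. The first 90 of these bases, from GENCODE transcripts on GRCm38, follow 5′ to 3′, with bases that differ from Atp5g1 in capitals (coding bases 184 to 273, 214 to 303 and 199 to 288 in turn).
Atp5g1: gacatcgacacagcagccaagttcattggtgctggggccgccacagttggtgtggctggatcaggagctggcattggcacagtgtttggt
Atp5g2: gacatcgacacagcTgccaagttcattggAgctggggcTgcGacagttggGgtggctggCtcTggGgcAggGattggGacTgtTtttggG
Atp5g3: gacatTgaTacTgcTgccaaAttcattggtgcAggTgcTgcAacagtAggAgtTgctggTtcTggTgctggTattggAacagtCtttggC

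Atp5g1 (chromosome 11, 96068852 to 96075670) had the most positive difference of all 86 genes. It had 1696, 1283 and 1304 TPM in the IP libraries, and 1326, 1274 and 210 in the Input libraries, a difference of 1.24 (SE 0.58; limma adjusted p = 0.660 over all genes), and 0.28 (SE 0.18) without IP 1 and Input 3. Its centred values were 5.89, 4.48 and 4.65 in IP and 4.34, 4.23 and 2.72 in Input, so the groups did not overlap, though IP 2 exceeded Input 1 by little. Atp5g3 had 1182, 1399 and 1559 TPM in IP against 1670, 1586 and 521 (difference 0.55, SE 0.37, and 0.15 without those libraries). Atp5g2 had 50.3, 44.6 and 63.9 TPM in the IP libraries, and 57.3, 52.9 and 34.7 in the Input libraries (difference 0.39, SE 0.34, and 0.24 without them). As shares of the summed TPM of the 3 genes, Atp5g1 took 57.9, 47.1 and 44.6% in IP and 43.4, 43.7 and 27.4% in Input, or 49.8 ± 7.10% against 38.2 ± 9.34% (SD, n = 3 each). The groups did not overlap, and the two-sided exact permutation p was 0.1, the smallest that 3 libraries against 3 allow. The share of Atp5g3 was 48.3 ± 6.95% in IP and 59.1 ± 7.79% in Input, with the same exact permutation p of 0.1. Without IP 1 and Input 3 the Atp5g1 share differed by 2.23 percentage points and the Atp5g3 share by -2.29, against 11.7 and -10.8 with all libraries. Leaving out only Input 3, these were 6.27 and -6.27, and leaving out only IP 1 they were 7.62 and -6.79. A processed pseudogene in the table, Gm10175, matches the coding sequence of Atp5g2 at 100% identity and had 565, 203 and 251 TPM in the IP libraries, and 220, 226 and 96.5 in the Input libraries, several times the level of Atp5g2 itself. With both summed, the share of Atp5g2 was 17.6, 8.44 and 9.90% in IP and 8.48, 8.88 and 15.2% in Input, and that of Atp5g1 44.5 ± 3.80% in IP against 35.1 ± 9.36% in Input.

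**Figure D3:**
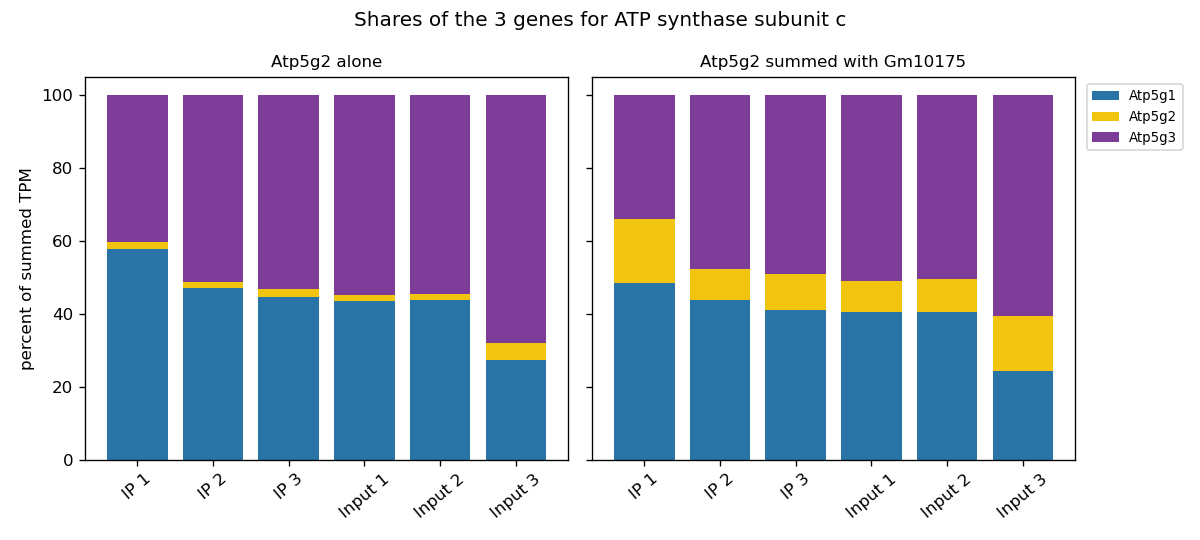
Share of each of the 3 genes for subunit c in their summed TPM (vertical axis, percent; bars add up from 0) in each library, with Atp5g2 alone (left) and with Gm10175 added to Atp5g2 (right). The Atp5g1 share at the bottom of each bar runs from 44.6 to 57.9% in IP and from 27.4 to 43.7% in Input on the left, lowest in Input 3.

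Of the members, 10 help build the complexes or are related genes but no subunits. They had mean TPM from 29.2 to 223 and a median difference of -0.06, with 3 above 0, and of -0.14 without IP 1 and Input 3, with 2 above 0. Of the 7 Ndufaf genes, assembly factors of complex I, 3 had differences above 0. Ndufaf2, which acts late in that assembly, had 95.05, 77.8 and 92.9 TPM in the IP libraries, and 89.3, 67.7 and 50.1 in the Input libraries, a difference of 0.63 (SE 0.38), and 0.42 without IP 1 and Input 3. Ndufaf8 had 201, 38.6 and 77.3 TPM in IP against 83.5, 79.0 and 41.2 (difference 0.62, SE 0.76, and -0.28 without them), with IP 1 far above all other libraries. Ndufaf3 had 97.1, 126 and 135 TPM in the IP libraries, and 238, 219 and 70.4 in the Input libraries (difference -0.14, SE 0.30), and -0.51 (SE 0.19) without IP 1 and Input 3. Atp5s, named for a coupling factor of the ATP synthase, was the 1 member below in all IP libraries on both scales, with 8.84, 17.4 and 27.9 TPM in the IP libraries, and 45.5, 41.5 and 34.4 in the Input libraries. Its difference was -1.003 (SE 0.33; limma adjusted p = 0.649), and -0.66 (SE 0.28) without IP 1 and Input 3. IP 1, at 8.84 TPM, was close to the lowest value the table holds.

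Among the members, the spread between libraries of 1 group followed the length of the reading frame. In the other genes this held between IP libraries and hardly between Input libraries (rho values below). The members are short: their median coding length is 442 bases, against 1083 over all genes with one. Across the 86 genes, the excess of IP 1 over the mean of IP 2 and IP 3 correlated with coding length at a Spearman rho of -0.77. Its median was 1.64 in the 44 genes of up to 450 bases, 0.76 in the 26 genes up to 900 bases and 0.08 in the 16 longer genes. Input 3 minus the mean of Inputs 1 and 2 had a rho of 0.47, with medians of -0.84, -0.45 and -0.15 in the same classes. Even Input 1 minus Input 2 had a rho of -0.69, with a median of 0.53 in the short and -0.02 in the long class. IP 3 minus IP 2 had a rho of -0.48, with medians of 0.46 and 0.16 in these classes. The IP minus Input difference with all libraries had a rho of -0.61 and medians of 0.58, 0.31 and 0.13, and without IP 1 and Input 3 a rho of 0.46 and medians of -0.23, -0.09 and 0.06. The median of the short class thus changed sign with the libraries used, while that of the long class lay near 0 in both. Over 5268 other genes with a coding length, the excess of IP 1 had a rho of -0.43 and a short-class median of 0.80, Input 3 a rho of -0.01 and -0.08, and Input 1 minus Input 2 a rho of -0.03 and 0.11. There IP 3 minus IP 2 had a rho of -0.42 and a short-class median of 0.33. The IP minus Input difference of these other genes had a rho of 0.12 and a short-class median of 0.03 with all libraries, and 0.37 and -0.30 without IP 1 and Input 3. These correlations are across genes, which share the same libraries and are not independent, and describe the libraries only. The part of transcript length in the differences between IP and Input was not tested.

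**Figure D4:**
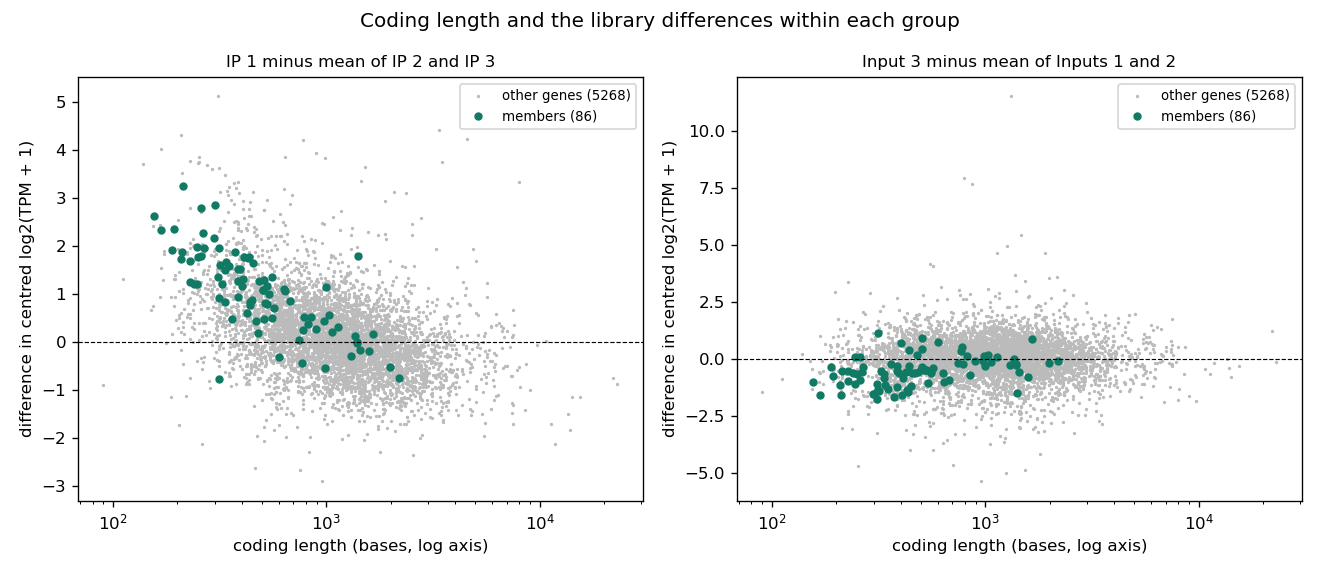
Coding length in bases (horizontal axis, log scale) against IP 1 minus the mean of IP 2 and IP 3 (left) and Input 3 minus the mean of Inputs 1 and 2 (right), in centred log2(TPM + 1), with the 86 members in green and 5268 other genes in grey. On the left the green points fall from a median of 1.64 in the shortest class to 0.08 in the longest, and on the right they lie mostly below 0 at short lengths (median -0.84).

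Near-identical copies limited what could be said of a few members. A coding sequence search of GENCODE transcripts found at least 1 copy of at least 95% identity over at least 80% of the length for 22 of the 86 genes, most for Atp5l with 8. For 4 members a copy had a value of its own in the table: Atp5g2 and Cycs, above, and Cox7c and Ndufb4. Ndufb4, an accessory subunit of complex I with the lowest mean TPM of that complex (57.4), had 66.5, 45.4 and 59.3 TPM in IP against 85.5, 60.2 and 27.7, while its copy Gm3244 had 465, 187 and 284 TPM in the IP libraries, and 435, 279 and 130.0 in the Input libraries. Cox7c, a small subunit of complex IV, had 439, 204 and 236 TPM in IP against 332, 208 and 97.7, and its copy Gm12338 had 649, 207 and 221 TPM in the IP libraries, and 264, 212 and 224 in the Input libraries. Each of the 4 copies exceeded its member in most libraries, and for Cycs, Ndufb4 and Atp5g2 in all 6. Summed with their copies, Ndufb4, Cox7c and Atp5g2 had centred differences of 0.45, 0.69 and 0.99, and -0.28, 0.08 and 0.29 without IP 1 and Input 3.

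Many nuclear genes of the respiratory chain are known targets of the factor NRF-1, which binds a GC-rich palindrome. Promoters of 70 members were found in a RefSeq table (GRCm38.p6, 250 bases before to 50 after the gene start), and the NRF-1 motif (the palindrome in capitals below, with any base in place of its T) stood in 18 of them (25.7%) on either strand, against 14.7% of 4245 genes of the table and 7.17% of 17491 protein-coding genes. The letters AAGATGGC, a core of the YY1 motif, stood in 14.3% of members against 6.9 and 3.57%. CCGGAAG, a core of ETS-factor motifs, stood in 25.7% against 24.7 and 12.9%, and TCAAGGTCA, the motif of estrogen-related receptors, in 2.86% against 0.4 and 0.377%. All were searched on both strands. No searched motif contains another, though matches within a promoter may share bases. The median IP minus Input difference was 0.39 in the 18 members with the NRF-1 motif and 0.45 in the 52 without. The stretches below are shown because they hold the perfect palindrome (capitals) in a member of complex IV and one of complex I, and lie upstream of the gene start in both RefSeq and GENCODE. They are on the minus strand at chr5:115349086-115349145 and on the plus strand at chr17:56717677-56717736.
Cox6a1: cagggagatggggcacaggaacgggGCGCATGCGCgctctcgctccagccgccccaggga
Ndufa11: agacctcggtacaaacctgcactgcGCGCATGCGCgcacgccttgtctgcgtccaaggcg
A match of letters is a description and no proof of binding. The IP minus Input difference was 1.02 for Cox6a1 and 0.81 for Ndufa11, and 0.24 and -0.23 without IP 1 and Input 3.

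Genes of the pathway that the symbol rule leaves out give the setting. Another 2 subunits of the ATP synthase and its inhibitor carry other symbols in the table: Usmg5, 2010107E04Rik and Atpif1 had differences of 0.04, 0.67 and 0.41, and -0.74, -0.34 and -0.45 without IP 1 and Input 3. Of 34 measured assembly factors outside the rule, 0 passed with all libraries (limma, median difference 0.07), and 2 were called higher without IP 1 and Input 3, Atpaf1 and Cmc2, where 3.38% of all genes were. Atpaf1, which helps assemble the F1 head, had 70.0, 131 and 137 TPM in the IP libraries, and 84.7, 96.5 and 70.8 in the Input libraries, with a difference of 0.62 (SE 0.28; limma adjusted p = 0.654) that was 0.85 (SE 0.19; limma adjusted p = 0.0347) without IP 1 and Input 3. Cmc2, linked to the assembly of complex IV, had 160, 75.3 and 101 TPM in the IP libraries, and 45.4, 61.7 and 55.6 in the Input libraries (difference 1.22, SE 0.58, limma adjusted p = 0.665, and 0.996, SE 0.24, limma adjusted p = 0.0491 without them). Coa6, another factor of complex IV, had the lowest difference at -0.50. The 13 citric acid cycle genes had a median difference of 0.18 and 0.19 without those libraries, with 0 called in either, Dlst and Fh1 highest at 0.66 and 0.50 and Idh3a lowest at -0.28. The 9 genes of pyruvate entry and oxidation had -0.07 and 0.29, again with 0 called, where Pdk3 and Pdhx were highest at 0.32 and 0.24 and Pdk2 lowest at -0.20. Of 10 carriers and porins 0 were called; Slc25a3 and Slc25a5, which bring in phosphate and exchange ADP for ATP, had 0.22 each and the porin Vdac1 -0.60. The list of regulators, which also holds the Higd1a and Higd2a genes, had 6 measured genes. Among them Esrra, a nuclear receptor that acts on genes of this pathway, had 62.2, 53.0 and 58.2 TPM in the IP libraries, and 28.7, 33.8 and 22.3 in the Input libraries. Every IP value of Esrra lay above every Input value, with a difference of 1.27 (SE 0.37) that was not called with all libraries and was 1.10 (limma adjusted p = 0.0189) without IP 1 and Input 3. In the same list Higd2a had 0.61 and Tfb2m -0.53.

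Of 13 subunits encoded by mitochondrial DNA, 2 had values and 11 had none here. mt-Nd1, of complex I, had 53.9, 299 and 206 TPM in the IP libraries, and 1672, 1358 and 16.5 in the Input libraries, and mt-Co1, of complex IV, 85.9, 491 and 301 against 2124, 2388 and 36.4. Their differences were -0.93 (SE 1.38) and -1.05 (SE 1.26), and -2.31 and -2.26 without IP 1 and Input 3, where limma called both lower (adjusted p = 0.000646 and 0.000756). In the same 4 libraries the 36 nuclear genes of complex I and 11 of complex IV had medians of -0.18 and -0.07, with 0 called. The difference between these 2 genes and the nuclear ones was not tested.

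Ribosomal protein genes are also short and abundant. By symbol alone, 84 genes were taken as cytosolic ribosomal protein genes, of which 81 had a coding length (median 468 bases). Such a symbol pattern can also take in related names, such as those of Rps6k kinases. These 84 genes had a median difference of 0.89 and 0.13 without IP 1 and Input 3, and the 77 mitochondrial ribosomal protein genes 0.19 and -0.12. With all libraries, 95.2% of the cytosolic and 74% of the mitochondrial ribosomal differences were above 0, against 83.7% of the oxidative phosphorylation genes. The median of IP 1 minus the mean of IP 2 and IP 3 was 2.33 in the cytosolic ribosomal genes, 1.10 in the oxidative phosphorylation genes and 0.64 in the mitochondrial ribosomal genes. That of Input 3 minus the mean of Inputs 1 and 2 was -0.07, -0.54 and -0.17 in the same order of lists. Input 3 was the lowest library in 27 of 84, 56 of 86 and 26 of 77 genes (32.1, 65.1 and 33.8%), against 25.4% of all genes. These shares are a description of 1 library, and the difference between the lists was not tested.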

How the data were processed

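The members and gene lists were chosen with earlier results of these data known. The authors deposited TPM values for 5538 genes in 6 libraries, as the file's header states. RSEM, DESeq and the build mm10 are listed, without versions or roles, per the submitters' processing notes. The sources used here name no aligner. TPM keep no read depth, so no counting interval or floor can be given. Values were transformed to log2(TPM + 1), and the median gene of each library was then subtracted. IP and Input were compared by limma 3.58.1 in R 4.3.3 (lmFit, eBayes with trend, group as the only term) over all genes, with Benjamini-Hochberg adjustment and a threshold of 0.05, after a test on simulated data. Shares were compared by exact permutation, where 0.1 is the smallest two-sided p. No low-value filter was used. Coding lengths (the longest reading frame, without stop) and gene positions came from GENCODE M21 (GRCm38, the build of mm10), where 5534 genes were found by ID, and copies from blastn 2.17.0. In each role the text names the 3 genes of highest TPM and the extremes of the difference, with isoform pairs and, from each outside list, the 2 highest and the lowest: 48 genes, 31 of them members. Genes named for near copies, motifs, markers, a role's range or non-overlap were added after their values were seen. The replicate numbers are in the titles. Deviations of same-numbered libraries correlated at -0.10, 0.25 and -0.17, and those of differently numbered ones at -0.25 to 0.19. With 3 libraries per group, these values cannot decide whether the libraries are paired. The numbers were not taken to pair the libraries in the main fit, and the replicate block is given as an alternative.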

Additional observations from a re-analysis of the deposited data

How the results depend on the processing

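No member was called in either direction under the following alternatives (no centring, quantile normalization, a pseudocount of 0.1, a mean TPM of at least 20, the replicate block, leaving out each library in turn, or leaving out IP 1 and Input 3). The replicate block gave 0 members higher and 0 lower, 0 of all genes in each direction and a median of 0.41. With no centring the median of members was 0.17 (all genes -0.23), and with quantile normalization 0.15. Leaving out 1 library at a time, it ran from 0.04 (without IP 1) to 0.71 (without IP 2), and calls over all genes from 0 to 16 higher and 0 to 1 lower, the highest without Input 3. Without IP 1 and Input 3 the median was -0.13, and 187 of all genes were higher and 160 lower. With no centring as well, a setting added after the data were seen, 121 were higher and 936 lower, 8 members were lower and 0 higher, and the medians were -0.42 for all members and -0.47, -0.32, -0.36, -0.36 and -0.31 for complexes I to V. In it Sdhb turned to -0.67. The complex II median was -0.25 with no centring and -0.20 with quantile normalization. Without IP 1 and Input 3 the share of Atp5g1 differed by 2.23 points, Atp5g3 by -2.29 and Cox7a2l by 0.46, and with Gm10175 added (chosen after the data were seen) Atp5g2 by 1.12. Leaving out 1 library at a time, these differences in share ran from 6.27 to 14.4 (Atp5g1), -13.2 to -6.27 (Atp5g3), -14.7 to -2.02 (Cox7a2l) and -1.36 to 0.00 (Atp5g2), each nearest 0 without Input 3. Of 31 named members, 15 had the other sign without IP 1 and Input 3, 9 under quantile normalization and 8 without IP 1. The causes were not tested. Depth is unknown and limits low genes such as Atp5s most.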
